A study of Mus musculus with 4 samples.

Results

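Of the 37718 gene rows in the deposited counts, 9 genes that act on the translation and storage of messenger RNA in germ cells were followed. They are *Boll*, *Ybx1*, *Ybx2*, *Cpeb1*, *Cpeb2*, *Pabpc1*, *Papolb*, *Tsn* and *Elavl2*, matched to 1 gene row each by their Ensembl gene identifiers. These genes were chosen by name with earlier results of these data known, so the share of them that passes a test is not an unbiased one. Together they hold 86 of the 207562 deposited introns, 179 of the 359565 exon segments, 110 of the 240574 annotated junctions and 7 of the 5005 unannotated junctions. The cells came from mouse testes at 20 days post partum, with 2 samples of the genotype *Tdrd6*+/- (1 intact *Tdrd6* allele) and 2 of *Tdrd6*-/- (none), each pooled from at least 4 mice. TDRD6 is a tudor domain protein of the chromatoid body, the ribonucleoprotein granule of male germ cells, and the comparison asked how splicing and transcript levels differ in its absence. In every sample the cells were collected on magnetic beads by hCD4, a human surface protein made under the endogenous *Tdrd6* promoter, so the cells of both genotypes were selected by the activity of the promoter of the gene under study. The number of hCD4 copies in each genotype is not given in the sources used here. The study describes the preparations as mostly diplotene spermatocytes.

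Male germ cells transcribe many genes long before the protein is needed. The mRNA is packaged and held untranslated, above all by Y-box proteins, and is later released for translation by changes in the length of its poly(A) tail and by proteins that bind its 3′ untranslated region. The genes below cover these steps. *Ybx1* and *Ybx2* encode Y-box proteins that coat mRNA, *Pabpc1* encodes the cytoplasmic poly(A)-binding protein, and *Papolb* encodes the testis poly(A) polymerase of the cytoplasm. *Cpeb1* and *Cpeb2* encode proteins that bind cytoplasmic polyadenylation elements, and *Boll* encodes an RNA-binding protein of the DAZ family. *Tsn* encodes translin, which binds RNA and single-stranded DNA, and *Elavl2* encodes a Hu protein that binds U-rich elements.

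The libraries held 26454326 to 31388750 fragments on genes and 9603669 to 13937818 on introns. *Tdrd6* itself had 1269 and 1412 CPM (counts scaled by library size) in *Tdrd6*+/- against 11.4 and 12.5 in *Tdrd6*-/-, so every library carried the level its genotype label implies. Over all genes, *Tdrd6*+/- 1 had 52.7 intron counts per 100 gene counts, *Tdrd6*+/- 2 had 41.9, *Tdrd6*-/- 1 had 42.5 and *Tdrd6*-/- 2 had 30.6. The library *Tdrd6*-/- 2 therefore held the smallest share of intron fragments and *Tdrd6*+/- 1 the largest. All 10 spermatocyte markers were detected, with summed levels of 2289 to 2706 CPM in *Tdrd6*+/- and 2494 to 2594 CPM in *Tdrd6*-/-. Markers of other testis cells were low, but the sums of 3 lists were higher in both *Tdrd6*-/- samples. The 10 Sertoli cell markers summed to 111 and 113 CPM against 135 and 152 CPM, the 10 spermatogonium markers to 26.1 and 25.7 against 30.6 and 35.4, and the 9 spermatid markers found in the table to 26.04 and 36.3 against 46.7 and 44.1. Of the spermatid markers, *Prm1*, *Prm2*, *Tnp1* and *Tnp2* had at most 10 counts in any library, with *Prm1* at 0 in 3 of the 4, whereas *Acrv1*, *Spaca1*, *Tssk1* and *Tssk2* had 54 to 609 counts, and *Spaca1* and *Acrv1* rose. In the gene expression test described next, 2 of 10 tested spermatocyte, 2 of 5 spermatid and 1 of 10 Sertoli cell markers rose, and 1 spermatocyte marker fell. Over all genes tested, 1.02% rose and 3.78% fell. Leydig, peritubular and blood cell markers each summed to less than 10 CPM in every sample. The part of these markers in the results below was not tested.

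*Cpeb2* and *Pabpc1* mRNA each fell 2.17-fold in *Tdrd6*-/- cells, while the other 7 genes did not pass the gene expression test. The median log2 fold change of the 9 genes was -0.15, beside 0.01 over the 16555 genes tested. Of all genes tested, 4.80% passed at a false discovery rate of 0.1, and 3.78% passed in the lower direction. In bulk samples, fewer cells of a type and less RNA per cell cannot be told apart.

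*Cpeb2* (chr5:43233170-43289724, plus strand, mm10) had 278 CPM in *Tdrd6*+/- 1 and 233 in *Tdrd6*+/- 2, against 126 in *Tdrd6*-/- 1 and 109.6 in *Tdrd6*-/- 2. The means were 256 ± 32.0 and 118 ± 11.8 CPM (SD, n = 2 each), and the lowest *Tdrd6*+/- sample was well above the highest *Tdrd6*-/- sample. Its log2 fold change was -1.12 ± 0.14 (SE), with an adjusted p of 3.8e-05 in edgeR's quasi-likelihood test. *Pabpc1* (chr15:36595661-36609668, minus strand) had 2340 and 2944 CPM in *Tdrd6*+/- against 1277 and 1162 in *Tdrd6*-/-, from 37180 to 82015 fragments per library. Here too the genotypes were far apart, and the larger of the *Tdrd6*+/- values came from replicate 2 whereas for *Cpeb2* it came from replicate 1. The log2 fold change of *Pabpc1* was also -1.12 ± 0.14 (SE), with an adjusted p of 4.6e-05. Both calls held under all 9 alternative fits, including those without each library in turn.

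*Pabpc1* has close relatives whose reads it could share, since the handling of fragments that align to several places is not given in the sources used here. *Pabpc2* had 701 and 957 CPM in *Tdrd6*+/- against 698 and 640.5 in *Tdrd6*-/-, ranges that were almost in contact, and an adjusted p of 0.34. *Pabpc6* had 1061 and 1299 CPM against 1299 and 1195, with overlapping ranges and an adjusted p of 0.87. Neither relative passed the test, and how fragments were divided between these genes and *Pabpc1* remains uncertain. *Cpeb4*, another gene of the *Cpeb* family, passed the test in the same direction as *Cpeb2*, from 147 and 139 CPM to 105 and 88.8 CPM (log2 fold change -0.57 ± 0.14, adjusted p = 0.020), and *Cpeb3* did not (-0.51 ± 0.25, adjusted p = 0.38). *Elavl1*, a relative of *Elavl2*, passed as well (-0.44 ± 0.13, adjusted p = 0.074), with 212 and 185 CPM against 153 and 138, whereas *Elavl2* did not pass. None of the other relatives tested passed, which were *Pabpc4*, *Papola*, *Papolg*, *Ybx3*, *Dazl*, *Elavl3* and *Tsnax*.

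The genes whose 4 values lay closest to those of *Cpeb2* were sought among all genes tested, as the Euclidean distance between log2 CPM values centred on each gene's mean over the 4 samples. The nearest were *Gm12117* at 0.039, *Ahcyl1* at 0.048 and *4933405E24Rik* at 0.081. *Ahcyl1*, which encodes a partner of the IP3 receptor, had 101 and 86.4 CPM in *Tdrd6*+/- against 47.1 and 39.2 in *Tdrd6*-/-. The other two genes stood at no more than 1.57 CPM in any sample. With 4 samples such a likeness describes the order and spacing of the samples and no more.

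The Y-box genes did not pass the test, but both sat lower in both *Tdrd6*-/- samples. *Ybx2*, the germ cell Y-box gene (chr11:69935796-69941605), had 755 and 790 CPM in *Tdrd6*+/- against 647 and 634 in *Tdrd6*-/-. Its log2 fold change was -0.27 ± 0.13 (SE), with an adjusted p of 0.34. *Ybx1* (chr4:119277981-119294604) had 1068 and 1212 CPM against 1048 and 1004, which leaves a narrow gap between the ranges (log2 fold change -0.15 ± 0.13, adjusted p = 0.68). Ranges that do not overlap were common in these data: they were found for 43.5% of all genes tested, with *Tdrd6*-/- lower for 23.4% and higher for 20.1%, so the 4 of 9 genes here (*Ybx1*, *Ybx2*, *Cpeb2* and *Pabpc1*) are to be read against those shares.

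The remaining 5 genes had overlapping ranges. *Papolb* (chr5:142525838-142530076) had 514 and 648 CPM in *Tdrd6*+/- against 528 and 509 in *Tdrd6*-/-, with the highest value in *Tdrd6*+/- 2 (log2 fold change -0.16 ± 0.14, adjusted p = 0.68). *Boll* varied least of the 9, with 342 and 347.5 CPM against 329 and 350.2 (-0.02 ± 0.13, adjusted p = 0.97). *Tsn* (chr1:118294778-118311739) had 69.7 and 54.9 CPM against 60.8 and 71.6, so that each genotype held a higher and a lower sample (0.09 ± 0.15, adjusted p = 0.87). The binding proteins *Cpeb1* and *Elavl2* were near the lower end of what these libraries could measure. *Cpeb1* (chr7:81347026-81455465) had 98 to 134 counts per library, or 4.24 and 3.52 CPM against 4.24 and 3.91 (0.07 ± 0.26, adjusted p = 0.94). *Elavl2* (chr4:91250763-91400785) had 37 to 51 counts, or 1.57 and 1.33 CPM against 1.42 and 1.59 (0.06 ± 0.34, adjusted p = 0.97). The wide standard errors of this last pair mean that even a large change could have been missed at this depth.

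Levels of different genes were compared as CPM per kilobase of annotated exon. Over the 4 samples the Y-box genes had the highest means, with *Ybx1* at 428 ± 35.6 and *Ybx2* at 375 ± 41.3 CPM per kb (mean ± SD, n = 4 samples), ranks 49 and 63 of the 18827 genes with at least 10 counts. *Pabpc1* followed at 404 ± 65.3 in *Tdrd6*+/- and 186 ± 12.5 in *Tdrd6*-/- (n = 2 each), so that in *Tdrd6*+/- it was close to *Ybx2* at 409.9 ± 13.3, and the ranges of these 3 genes over the 4 samples overlapped from one to the next. Below them, each gene was separate from its neighbour in every sample: *Papolb* at 129.7 ± 15.5, *Boll* at 97.4 ± 2.71, *Cpeb2* at 32.7 ± 4.10 in *Tdrd6*+/- and 15.1 ± 1.51 in *Tdrd6*-/-, *Tsn* at 7.10 ± 0.87, *Cpeb1* at 0.95 ± 0.08 and *Elavl2* at 0.18 ± 0.01 CPM per kb. With the longest annotated transcript in place of all annotated exons as the length, *Pabpc1* stood at 662 CPM per kb over the 4 samples, beside *Ybx1* at 665 and above *Ybx2* at 422, and *Boll* at 129.8 stood level with *Papolb* at 129.7, so the order among these genes depends on the length chosen.

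**Figure D1:**
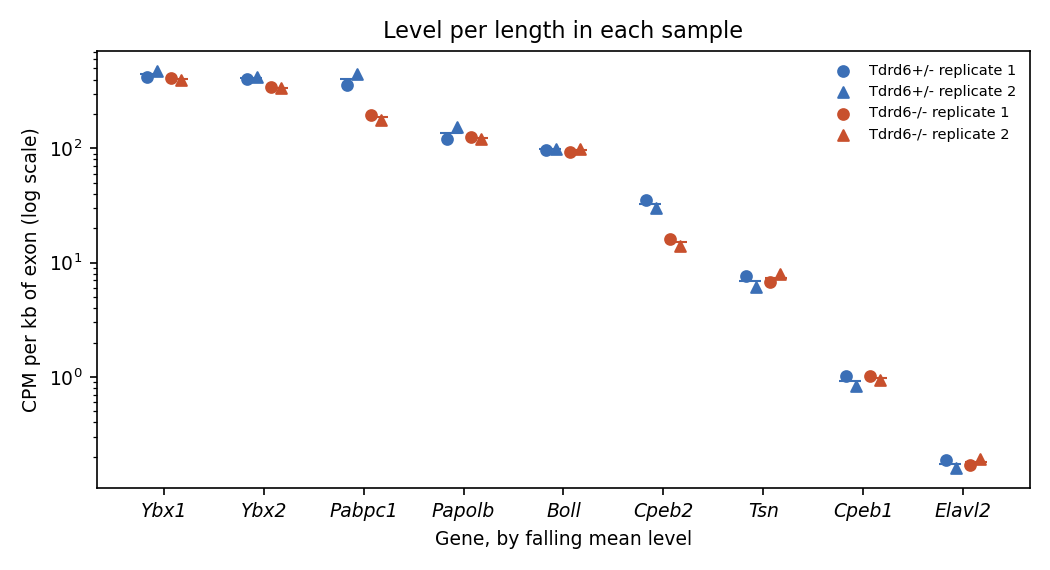
Level of each gene in CPM per kilobase of annotated exon (log axis) in the 4 samples, ordered by the mean; circles and triangles are replicates 1 and 2, blue is *Tdrd6*+/-, red is *Tdrd6*-/-, and horizontal bars are the genotype means. The red points of *Pabpc1* (195 and 178) and *Cpeb2* (16.2 and 14.0) lie apart from the blue ones (358 and 450, 35.6 and 29.8), and the other genes sit close together.

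Intron fragments were then set against gene fragments, a ratio that takes out the level of the gene. *Papolb* has no intron, and of the other 8 genes *Boll* alone passed this test, in which 2.00% of 15190 genes passed and 1.21% in the lower direction. *Boll* had 101 intron counts per 100 gene counts in *Tdrd6*+/- 1 and 63.2 in *Tdrd6*+/- 2, against 49.4 in *Tdrd6*-/- 1 and 31.4 in *Tdrd6*-/- 2. Both *Tdrd6*-/- samples were lower, while the samples of each genotype also differed widely and fell in the same order as the intron share of the whole library, apart from *Tdrd6*+/- 2 and *Tdrd6*-/- 1, which were close to each other in that share. After each library's intron and gene counts had been scaled separately, the log2 change of the ratio was -0.72 ± 0.19 (SE), with an adjusted p of 0.063 (edgeR). The call was lost without *Tdrd6*+/- 1 (-0.46, adjusted p = 0.79) and without *Tdrd6*-/- 2 (-0.60, adjusted p = 0.20), and held in the other 7 alternative fits. The exact permutation test of 2 against 2 samples cannot give a p below 0.33, and gave 0.33.

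*Cpeb2* and *Pabpc1* had ratios that lay in the opposite direction from their gene counts, without passing the test. The gene count is the denominator of the ratio, so these directions are not independent. *Cpeb2* had 90.8 and 71.2 intron counts per 100 gene counts in *Tdrd6*+/- against 103 and 91.2 in *Tdrd6*-/-, so that the lower *Tdrd6*-/- sample stood only just above the higher *Tdrd6*+/- sample. Its log2 change was 0.57 ± 0.18 (SE), with an adjusted p of 0.12 (edgeR) that ranged from 0.025 to 0.78 over the alternatives and passed in 3 of 9. *Pabpc1* had 7.89 and 5.91 against 7.70 and 7.42, an overlap, with a log2 change of 0.45 ± 0.22 and an adjusted p of 0.42. In CPM of all intron fragments, both genes were lower as well: 511 and 408 against 343 and 363 for *Cpeb2*, and 373 and 427 against 259 and 313 for *Pabpc1*, differences that were not tested.

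The intron to gene ratio of the other genes gave no call. *Cpeb1* had 237 and 235 intron counts per 100 gene counts against 160 and 123, and *Elavl2* had 383 and 373 against 300 and 186, more intron than gene fragments in all 4 samples. Their ranges did not overlap, but neither passed (log2 change -0.44 ± 0.23, adjusted p = 0.46, and -0.37 ± 0.31, adjusted p = 0.69). *Ybx1*, *Ybx2* and *Tsn* overlapped, with log2 changes of 0.11 ± 0.20, 0.12 ± 0.20 and 0.05 ± 0.17. For reference, ranges without overlap were found for 41.4% of genes by this unscaled ratio, most of them with *Tdrd6*-/- lower (35.9% of genes, against 5.52% higher), and the median log2 change was 0.06 over all genes and 0.08 over these 8. The balance of the test depended on scaling: 39.5% of all genes called were higher, 61.6% with total counts in place of TMM factors, and 8 of 220 with 1 factor for introns and genes of a library, where the median over all genes was -0.24. *Boll* was called under each of these, at -0.63 with total counts and -1.02 with 1 factor, and *Ybx1*, *Ybx2* and *Tsn* changed sign under the latter.

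**Figure D2:**
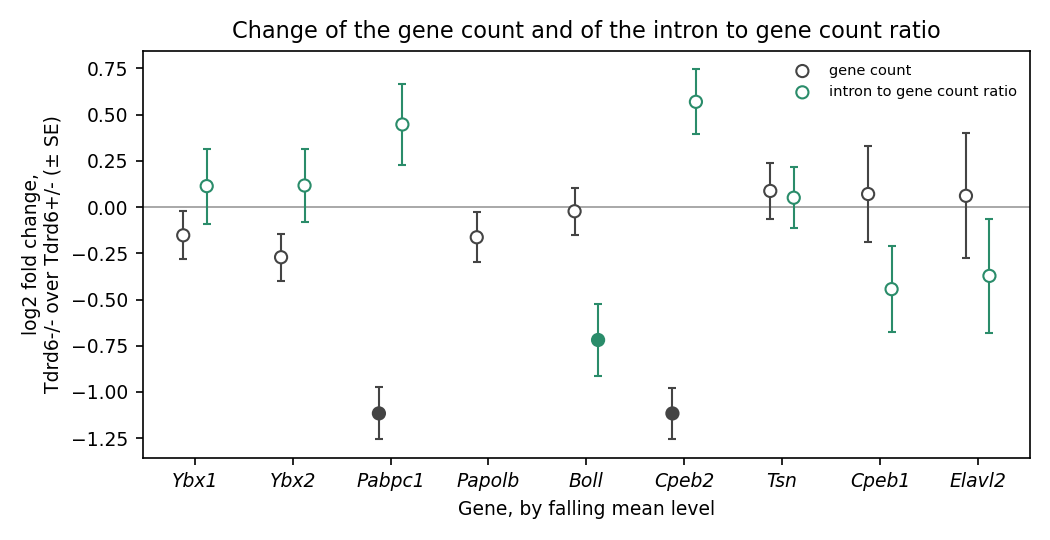
Log2 fold change of the gene count (grey) and of the intron to gene count ratio (green) in *Tdrd6*-/- over *Tdrd6*+/-, with bars of 1 standard error, for each gene in order of mean level; filled points passed at a false discovery rate of 0.1. *Cpeb2* and *Pabpc1* lie at -1.12 in the gene count, *Boll* lies at -0.72 in the ratio and at -0.02 in the gene count, and *Papolb* has no ratio.

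Each intron was also tested against the other introns of its gene, which asks whether fragments are spread differently along the introns. Of the 86 introns, 50 were deep enough to be tested, among them 11 of the 12 of *Boll* and none of the 15 of *Elavl2*. Of the 50, 2 passed, both in *Boll*, where 1.94% of the 28903 introns tested passed over all genes (0.716% higher and 1.22% lower). *Boll* intron 6 fell and *Boll* intron 8 rose as a share of the gene's intron fragments.

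*Boll* lies on the minus strand of chromosome 1 (chr1:55248658-55363469, mm10), and the deposited introns are numbered by rising coordinate, so that intron 12 is the first to be transcribed. Intron 6 is the 16751-base gap at chr1:55323722-55340472 and intron 8 the 2428-base gap at chr1:55346453-55348880, by the GENCODE M21 annotation, whose count of 12 introns is the same as in the files. In the transcript *Boll*-201 they separate coding exons 6 and 7, and coding exons 4 and 5, of 10. The deposited counts hold 22 exon segments of *Boll* where GENCODE M21 gives 20, so these positions and exon ends are less certain. The exon junctions that form when these introns are removed are shown because they are the products of the splicing steps in question, 5′ to 3′, with the exon before the intron in lower case and the exon after it in capitals:
*Boll* intron 6: ccaccatcttggcctTCACGTTCCATATCT
*Boll* intron 8: aaaatcttacaagagGCTGAAAAACTCAAT

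*Boll* intron 6 held 4.39% and 4.43% of the gene's intron fragments in *Tdrd6*+/- against 2.43% and 2.33% in *Tdrd6*-/-, on counts of 397, 271, 125 and 82. The replicates nearly coincided within each genotype, and the log2 usage change was -0.92 ± 0.21 (SE) with an adjusted p of 0.0043 by a likelihood ratio test in DESeq2. Intron 8 held 2.20% and 2.45% against 3.74% and 4.52%, on raw counts of 199, 150, 192 and 159. Those counts are not scaled for the intron fragments of each library, which were fewest in *Tdrd6*-/- 2 (9603669). In CPM of all intron fragments, the *Boll* introns together had 698 and 540 in *Tdrd6*+/- against 428 and 399 in *Tdrd6*-/-, which was not tested. The log2 usage change of intron 8 was 0.85 ± 0.22 (SE) with an adjusted p of 0.018. With the gene count as the reference in place of the other introns, intron 6 was still lower (-1.59) and intron 8 no longer passed (0.11, adjusted p = 0.91). Neither intron passed without *Tdrd6*+/- 1 (adjusted p = 1.0 for both), without *Tdrd6*+/- 2 (0.11 and 0.13) or without *Tdrd6*-/- 2 (0.43 and 0.89), or in edgeR's diffSpliceDGE (adjusted p = 1.0 for both).

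Other introns of *Boll* did not pass. With introns 6 and 8 included, 7 of its 11 tested introns had an unadjusted p under 0.05 in DESeq2, beside 3041 of all 28903 introns tested. Of the 11, 8 had shares that did not overlap between genotypes, beside 46.4% of all introns tested (23.2% higher and 23.2% lower). All shares of a gene are parts of the same total, so a fall in a large intron raises the others and these introns are not independent. Introns 8, 9, 10 and 11 near the 5′ end and intron 4 were higher in both *Tdrd6*-/- samples, and introns 2, 6 and 7 were lower. The largest intron by count, intron 2, held 41.7% and 37.6% against 36.4% and 29.7% (log2 usage change -0.41 ± 0.18, adjusted p = 0.32). Over all genes with at least 5 tested introns, the median log2 usage change was 0.01 for the intron nearest the 5′ end and 0.07 for the one nearest the 3′ end.

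**Figure D3:**
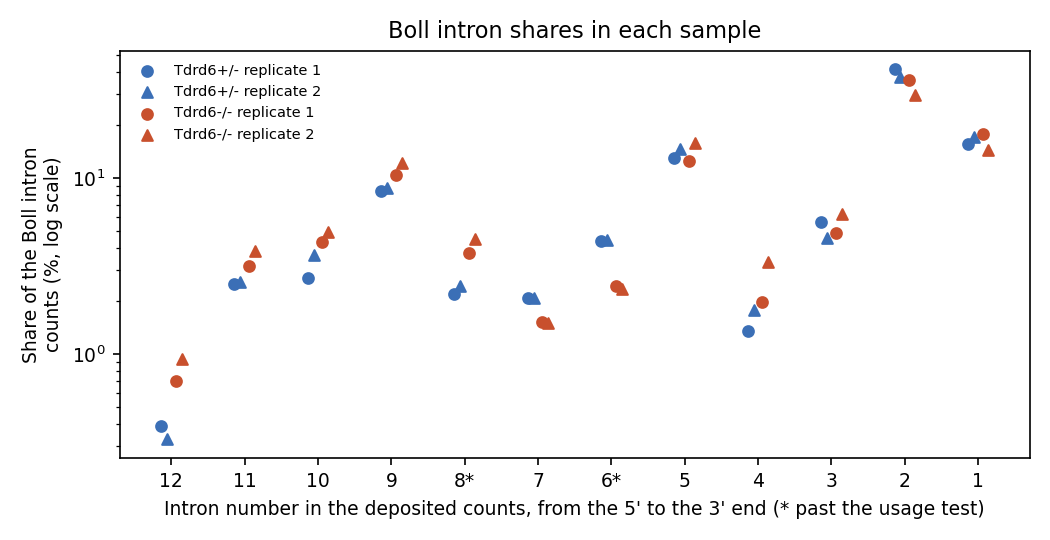
Share of the *Boll* intron fragments on each of its 12 introns (percent, log axis) in the 4 samples, from the 5′ end at the left; blue is *Tdrd6*+/-, red is *Tdrd6*-/-, circles and triangles are replicates 1 and 2, and asterisks mark introns 6 and 8, which passed the usage test. The red points lie above the blue ones for introns 12 to 8 and below them for introns 7 and 6.

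No intron of the other genes passed. The smallest p in *Pabpc1* belonged to intron 14, the first of the gene, with 12.3% and 10.2% of its intron fragments in *Tdrd6*+/- against 14.4% and 15.2% in *Tdrd6*-/- (log2 usage change 0.46 ± 0.18, adjusted p = 0.23). In *Cpeb2* it belonged to intron 1, with 3.07% and 4.56% against 5.01% and 6.16% (0.60 ± 0.24, adjusted p = 0.26). In both introns the *Tdrd6*-/- samples held the higher shares. With the gene count as the reference both passed in DESeq2 (0.86, adjusted p = 0.025, and 1.15, adjusted p = 0.0035), among 1266 of 29816 introns over all genes. That reference was itself lower in *Tdrd6*-/- for both genes. The raw counts of these introns were 595 and 492 against 448 and 420 in *Pabpc1*, and 203 and 211 against 206 and 197 in *Cpeb2*. They are not scaled for the intron fragments of each library, from 13937818 in *Tdrd6*+/- 1 to 9603669 in *Tdrd6*-/- 2. No change of the introns themselves can be read from them. The introns with the smallest p in *Ybx1* (intron 3, 0.35 ± 0.23), *Ybx2* (intron 8, 0.26 ± 0.20), *Cpeb1* (intron 10, -0.23 ± 0.28) and *Tsn* (intron 3, -0.17 ± 0.27) had adjusted p from 0.66 to 0.92. In *Cpeb1* this 63.7-kb intron carried 47.4% to 51.7% of all intron fragments, and it was the gene's only intron deep enough for the test.

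Exon segments and junctions were tested against the rest of the fragments of their gene. Of the 296 deposited for the 9 genes, 161 were tested, and 3 passed, all higher in *Tdrd6*-/- and all at or near the 5′ end of their gene. Over all genes, 0.221% of the 147710 tested passed, 0.148% higher and 0.0731% lower. Shares that did not overlap between genotypes were found for 59 of the 161, beside 35.9% of all tested (20.2% higher and 15.7% lower). In simulated data this test made more false calls than its nominal rate, so the adjusted p-values of the 3 features may be too small. None of *Cpeb1* or *Elavl2* was deep enough, and *Papolb* consists of a single segment.

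*Ybx1* segment 19 of 21 is a 10-base stretch of the 5′ untranslated region in exon 1 (chr4:119294481-119294490, mm10, minus strand, GTAGCGGGAG in the transcript *Ybx1*-201), where alternative exon ends of the annotation divide the exon. It held 0.78% and 0.85% of the gene's fragments in *Tdrd6*+/- against 1.31% and 1.25% in *Tdrd6*-/-, on counts of 218, 286, 434 and 402. Both *Tdrd6*-/- samples were higher, the log2 usage change was 0.66 ± 0.15 (SE) and the adjusted p was 0.0094 (DESeq2). Segments 20 and 21, farther towards the 5′ end, changed by 0.47 ± 0.22 and 0.43 ± 0.21 and did not pass (adjusted p = 1.0 for both).

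The features of *Pabpc1* that passed were exon segment 26 and junction 42, each with the highest number of its kind in the files and so nearest the 5′ end of this minus-strand gene. Segment 26 held 6.44% and 7.44% of the fragments in *Tdrd6*+/- against 8.51% and 9.31% in *Tdrd6*-/- (log2 usage change 0.39 ± 0.10, adjusted p = 0.085), and junction 42 held 2.22% and 2.54% against 3.07% and 3.31% (0.43 ± 0.11, adjusted p = 0.039). Neither could be given a position, since the number of segments in the annotation at hand differed from that in the files. In absolute counts both were lower, as the gene was, with 3948 and 6099 against 3437 and 3463 for the segment. *Cpeb2*, on the plus strand, had no call. Its smallest p belonged to segment 3, with 1.61% and 2.02% against 2.63% and 3.99% (0.88 ± 0.24, adjusted p = 0.13 in DESeq2). Outside the rule for named features, segment 1 had 0.82 ± 0.25 (adjusted p = 0.27) and segment 19 had -0.28 ± 0.10 (adjusted p = 0.62). The 25 tested segments and junctions of *Cpeb2* ranged from -0.46 to 0.88, with a median of -0.03. Its segments could not be placed either.

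A shift of usage towards the 5′ end was present over all genes. Over 5787 genes with at least 5 tested exon segments, the median log2 usage change was 0.13 for the segment nearest the 5′ end, positive in 73.5% of genes, and -0.07 for the segment nearest the 3′ end, positive in 32.6%. The part of this shift in the 3 calls was not tested. None of the 3 passed without *Tdrd6*+/- 1, without *Tdrd6*-/- 1 or without *Tdrd6*-/- 2 (adjusted p from 0.49 to 1.0), or in edgeR's diffSpliceDGE (adjusted p = 1.0 for each). Segment 26 of *Pabpc1* was also lost with no independent filtering (adjusted p = 0.18) and with 10 rounds of dispersion estimation (0.12). In *Boll*, *Tsn* and *Ybx2* the smallest adjusted p were 0.87 for segment 3 of *Boll* (-0.25 ± 0.11), 0.87 for junction 9 of *Tsn* (0.47 ± 0.20) and 1.0 for segment 9 of *Ybx2* (-0.15 ± 0.09).

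**Figure D4:**
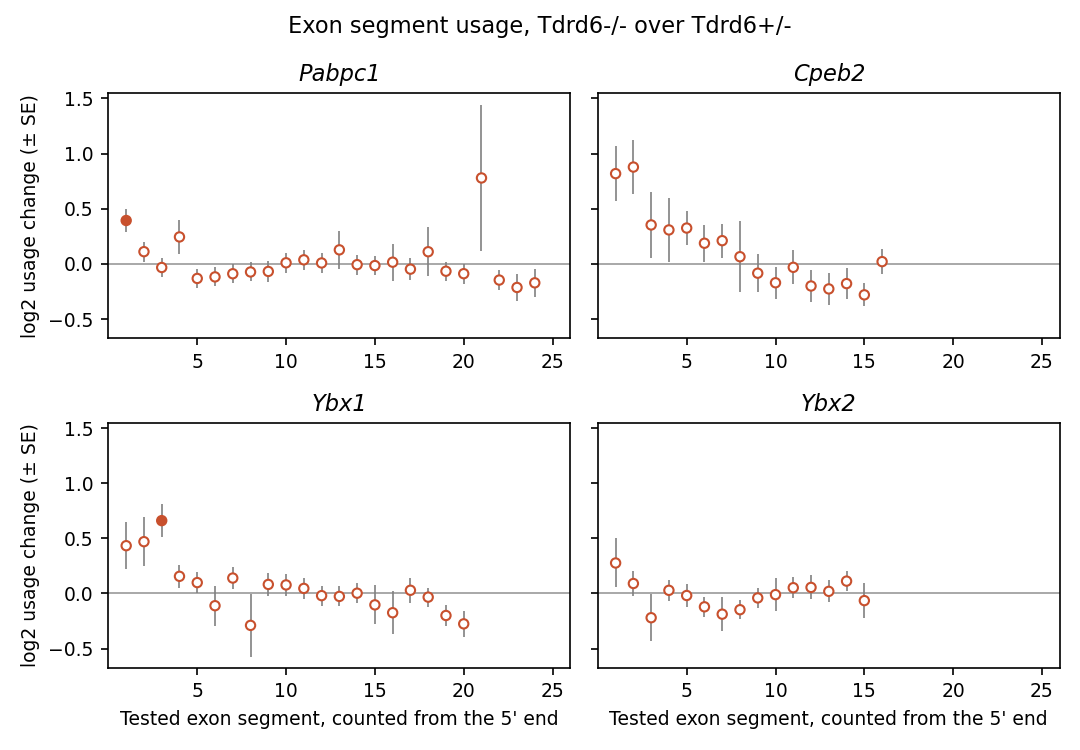
Log2 usage change of each tested exon segment in *Tdrd6*-/- over *Tdrd6*+/-, with bars of 1 standard error, in order from the 5′ end for *Pabpc1*, *Cpeb2*, *Ybx1* and *Ybx2*; filled points passed at a false discovery rate of 0.1. The first segments lie above 0 in all 4 genes, with filled points at 0.39 in *Pabpc1* and 0.66 in *Ybx1*.

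Other genes of the same pathways were followed as lists, with the 9 genes left out. Among 38 tested genes of mRNA storage and repression, 11 fell and none rose, with a median log2 fold change of -0.18. *Ddx6*, a helicase of P-bodies that represses translation, fell by 0.98 ± 0.14 on the log2 scale, from 333 and 322 CPM to 184 and 148 (adjusted p = 0.00015). *Edc3*, a decapping enhancer, fell by 1.03 ± 0.17 (adjusted p = 0.0012). Among 18 genes of deadenylation, the removal of poly(A) tails, 5 fell and none rose (median -0.16). The deadenylase subunit *Cnot6* fell by 0.98 ± 0.15 (adjusted p = 0.00033), and *Cnot1*, the scaffold of the CCR4-NOT complex, fell by 0.87 ± 0.13, from 2001 and 2022 CPM to 1197 and 1004 (adjusted p = 0.00042). The shares that fell, 28.9% and 27.8%, stand beside 3.78% of all genes tested. As the lists were chosen with earlier results of these data known, these shares cannot test for an excess.

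Of 21 genes of translation initiation, 5 fell and none rose, though the median of the list was -0.03. *Eif1*, which takes part in start codon selection, fell by 1.21 ± 0.15 (adjusted p = 4.3e-05), and *Eif5b*, which acts in subunit joining, fell by 0.93 ± 0.15 (adjusted p = 0.00085). Of 21 genes of poly(A) binding and polyadenylation, *Cstf3* alone passed, at -0.81 ± 0.14 (adjusted p = 0.0015), and the list's median was -0.02. Of 22 mRNAs listed as stored for spermatids, 17 were tested in edgeR and 13 in DESeq2. None passed in either, and the median of the 17 was 0.29. The filter on low counts left out *Prm1*, *Prm2*, *Tnp1*, *Tnp2* and *Fscn3*, each with at most 10 counts in any library. The result therefore does not cover them. An unadjusted p under 0.05 in edgeR was found for 2 of the 17, beside 2316 of all 16555 genes. Without *Tdrd6*+/- 2, 3 of 18 passed, all higher in *Tdrd6*-/-. The counts of genes that fell lean on single libraries and on the filter on low counts. Without *Tdrd6*-/- 2 the genes that fell were 2 of 38 for storage, 2 of 18 for deadenylation and 2 of 21 for initiation, among 147 of all genes in place of 625. For storage 5 fell without *Tdrd6*-/- 1 and 7 without *Tdrd6*+/- 1, and for initiation 3 fell without *Tdrd6*+/- 2. With no filter 2 of 40 fell for storage, 2 of 18 for deadenylation, 1 of 22 for initiation and 0 of 23 for poly(A) binding and polyadenylation, among 75 of all genes called in either direction.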

How the data were processed

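RNA of hCD4+ cells was rRNA-depleted and sequenced as strand-marking paired-end libraries, 1 per sample (bcl2fastq 1.8.4 per the labels). The authors aligned fragments to mm10 with GSNAP and deposited raw counts of fragments per gene, exon segment, junction and intron; the counting program is not given in the sources used here. The files carry no coordinates, and the study annotated its fragments with an Ensembl release, not with the GENCODE M21 used here. Introns and segments were placed by order in GENCODE M21 where their number in a gene was the same; in 1855 minus-strand genes, intron counts followed length by rising coordinate (median rank correlation 0.79) and not in reverse (-0.06). The rows of fragments outside any single intron, 69.0% to 78.1% of the intron tallies, were left out. Groups came from the sample titles.

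Genes were tested with edgeR 4.0.16 in R 4.3.3 (filterByExpr, TMM, quasi-likelihood). CPM used TMM-scaled library sizes. The intron to gene ratio was the interaction of count kind and genotype in edgeR, with TMM factors (edgeR's scaling of library sizes) per kind and at least 10 counts. Introns, and segments or junctions, were tested as their own count against the rest of the gene with the DEXSeq model in DESeq2 1.42.0 (likelihood ratio test, 1 round of dispersion estimation, independent filtering at a mean of 85.5 and 53.4 normalized counts). Benjamini-Hochberg adjustment ran over all features, at a false discovery rate of 0.1. The named genes were the 9, every intron, segment or junction of theirs that passed and the one with the smallest p in each gene, the 3 genes nearest in pattern to the gene with the smallest p, and up to 2 called genes of each list, by rising adjusted p. Relatives of the 9 genes were added after their values were seen. The members and lists were chosen with earlier results of these data known. The fits were tested on simulated data, in which the segment and junction test made more false calls than its nominal rate. Nothing says that the pools of mice were independent of each other, so p-values measure the spread between these samples. Counting error is included in the fits. Alternatives were other tools, scalings, filters and references, a replicate block, and leaving out each library. Sequences are from GENCODE M21 transcripts.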

Additional observations from a re-analysis of the deposited data

How the results depend on the processing

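The calls of *Cpeb2* and *Pabpc1* in the gene expression test held under all 9 alternatives. Under alternatives, 318 values of single genes, introns, segments or junctions were recomputed. Of these, 269 kept their direction and their side of the threshold, 25 no longer passed, 7 passed only there and 17 changed sign. Most of the 318 had not passed in the main fits, so the 269 say little about the calls. Of 11 alternatives each, *Boll* intron 6 passed in 7, *Boll* intron 8 in 6 and *Pabpc1* segment 26 in 5. *Pabpc1* junction 42 and *Ybx1* segment 19 each passed in 7 of 11, and the *Boll* ratio in 7 of 9. All 25 losses fell on these calls. Those that changed sign had not passed: *Boll* expression with no filter (0.0032), and the intron to gene ratio of *Ybx1* (-0.19), *Ybx2* (-0.18) and *Tsn* (-0.25) with 1 scaling factor for introns and genes. Leaving out 1 library moved log2 expression changes from -0.060 to 0.022 for *Boll*, -0.056 to 0.22 for *Cpeb1*, -0.31 to 0.016 for *Papolb*, -0.073 to 0.28 for *Tsn* and -0.051 to 0.19 for *Elavl2*, ratio changes from -0.047 to 0.27 for *Ybx1*, -0.060 to 0.30 for *Ybx2* and -0.055 to 0.16 for *Tsn*, and the usage of *Ybx1* intron 3 from -0.052 to 0.78.

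Genes called in expression numbered 794, 75 with no filter, 725 in DESeq2 and 257 to 1064 without 1 library, the lowest without *Tdrd6*-/- 2. Genes called in the intron to gene ratio numbered 304, 123 in DESeq2, 58 to 962 without 1 library, 220 with 1 scaling factor (8 of them higher) and 297 by total counts, where 61.6% were higher in place of 39.5%. Of the 8 genes, 2 were called by total counts, 2 with at least 50 counts and 0 to 2 without 1 library. Introns called numbered 561, 2 in diffSpliceDGE, 220 with no independent filtering, 1266 against the gene count, 4 to 1175 without 1 library and 1855 with 10 rounds of dispersion estimation, a setting chosen after seeing the data. For introns of the 9 genes these counts were 2, 0, 2, 10, 0 to 4 and 5. Exon segments and junctions called numbered 327, 81 in diffSpliceDGE, 51 to 763 without 1 library and 1982 with 10 rounds, and for the 9 genes 3, 0, 0 to 7 and 5. With no independent filtering 2 of these were called, and with the replicate block 4. The causes were not tested. Over the 9 genes the median level was 97.4 CPM per kb, 129.7 by the longest transcript and 96.6 to 98.6 without 1 library.

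The replicate numbers were only names (correlation of same-numbered samples -0.11 over genes and 0.05 over introns). A replicate block gave 1046 genes in expression, 302 in the ratio, 881 introns and 306 segments or junctions. With the numbers crossed, a fit also chosen after seeing the data, 1175 genes were called in expression. Low counts left *Cpeb1* and *Elavl2* with wide intervals and nearly untested in usage, and with 2 samples a group every call rests on spread shared between features.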
